A study of Arabidopsis thaliana with 6 samples.

Results

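The cuticle genes described here were 41 *Arabidopsis thaliana* loci listed by locus identifier for their known roles. They were 13 of wax synthesis, 14 of cutin synthesis, 8 transcription factors that regulate them and 6 of export to the plant surface. The rule used no measured value, but this list and the other gene lists below were drawn up with earlier results of these data known. All 41 were found among the 32678 genes of the deposited tables, and 40 had enough counts to be tested. Transcripts were measured by poly-A RNA-seq in inflorescence apices carrying flowers up to stage 12, in 3 *bpcV* and 3 wild type libraries. *bpcV* is the quintuple mutant *bpc1-2 bpc2 bpc3 bpc4 bpc6* in the Columbia-0 ecotype, which carries mutations in BASIC PENTACYSTEINE genes of classes I and II, and wild type is Columbia-0 itself, untreated and grown in the same long days. The libraries are called biological replicates and how many plants each holds is not stated, so a p-value measures the spread between these 3 samples of a genotype against 3 of the other. Because the samples are whole apices, fewer epidermal cells and less RNA per epidermal cell cannot be told apart.

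The cuticle is the lipid layer that epidermal cells lay over every aerial organ. Its polymer, cutin, is built from hydroxylated fatty acids joined to glycerol, and its waxes are very-long-chain fatty acids turned into alkanes, alcohols, ketones and esters. Both kinds of lipid leave the cell through ABC transporters of the G subfamily, and lipid transfer proteins anchored at the cell surface take part in the delivery of wax. In flowers the cuticle keeps neighbouring organs from fusing and shapes the nanoridges of petal epidermis. BASIC PENTACYSTEINE proteins are plant transcription factors that bind GA repeats.

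The libraries held 16196042 to 19951509 expected counts in *bpcV* and 17777219 to 21455150 in wild type. Of the genes mutated in *bpcV*, *BPC1*, *BPC2*, *BPC4* and *BPC6* were called lower in *bpcV* (edgeR quasi-likelihood test, false discovery rate, FDR, at most 0.01), while *BPC3*, with 63 to 94 counts in *bpcV* and 43 to 73 in wild type, was not (log2 fold change 0.38, FDR = 0.292). *BPC4* had 544 to 679 counts in *bpcV* and 880 to 1049 in wild type, so its transcript was lowered and not lost.

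No cuticle gene passed the test between *bpcV* and wild type at an FDR of at most 0.01 with edgeR's quasi-likelihood test, 0 of 40 where 3.89% of all 20813 tested genes passed, 1.66% higher and 2.23% lower in *bpcV*. Among the 5211 genes expressed at a similar level, those with a mean of at least 39.1 TPM (transcript level scaled by gene length and library, the bound being the lower quartile of the cuticle genes), 4.39% passed. At an FDR of at most 0.05 there were 2, both lower in *bpcV*, namely the transcription factor gene *MYB16* and the acyl-CoA synthetase gene *LACS3*, where 12.0% of all genes passed and 6.35% were lower. With DESeq2 the count at an adjusted p of at most 0.01 was 1, *MYB16* (7.99% of all genes), and with edgeR's likelihood ratio test it was 2, *MYB16* and *LACS3* (10.7% of all genes). At an unadjusted p under 0.05 there were 14, 9 higher and 5 lower, which is 35% of the cuticle genes beside 28.3% of all genes.

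The differences were small in both directions. The log2 fold changes of *bpcV* over wild type ran from -0.47 to 0.37, and their median size, 0.17, was near that of all genes, 0.19. For 34 of the 40 genes (85%) the whole 95% interval of the fold change lay within a 1.5-fold difference either way. The same was true of 58.1% of all tested genes and of 74.1% of the 5211 genes expressed at a similar level. The intervals that reached past 1.5-fold were those of *LACS3*, *CYP86A2*, *CYP86A4*, *CYP77A4*, *MYB16* and *MYB30*, so for those genes the interval holds changes above that size. The plot of fold changes with their intervals shows each gene.

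**Figure D1:**
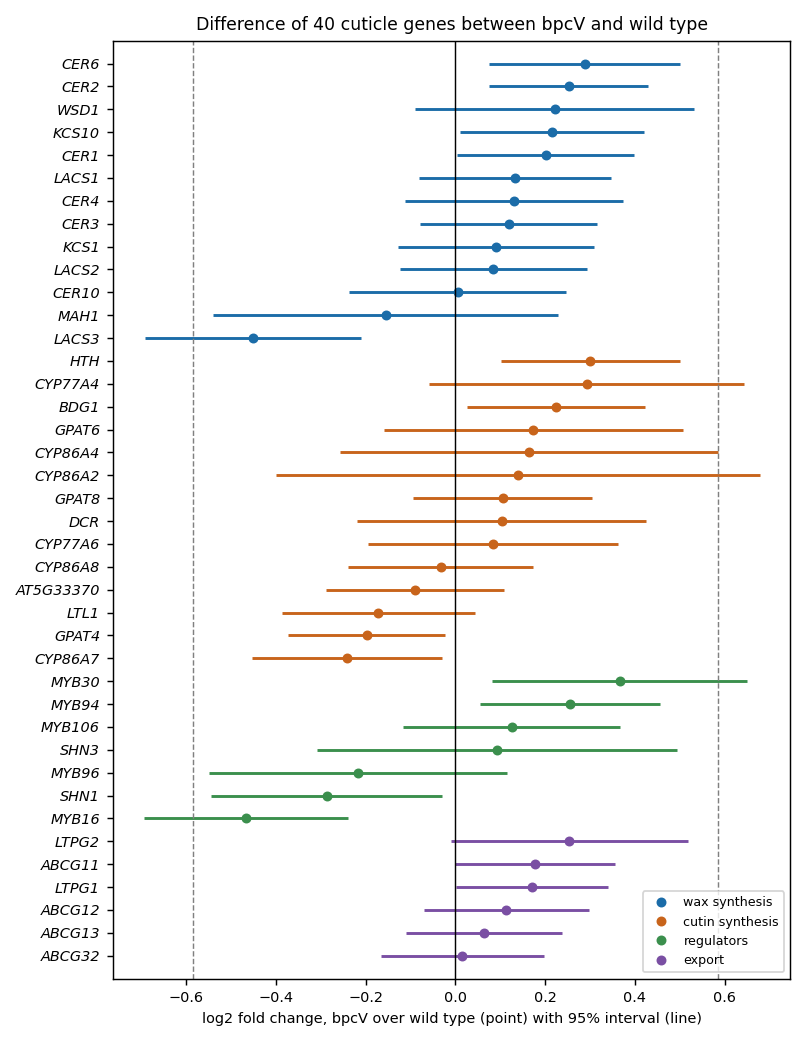
Log2 fold change of *bpcV* over wild type (x axis) for the 40 tested cuticle genes (rows, by role), as points with 95% intervals from edgeR's quasi-likelihood fit, n = 3 libraries of each genotype. The dashed lines mark 1.5-fold either way. The points lie between -0.47 (*MYB16*) and 0.37 (*MYB30*), and 34 intervals stay inside the dashed lines.

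More of the genes leaned up than down. The fold change was above 0 for 30 of the 40 (75.0%), where the share among all tested genes was 51.5%, and the median log2 fold change was 0.12 beside 0.01 for all genes. In 17 of the 40 (42.5%) the 3 *bpcV* values in CPM (counts scaled to library size) did not overlap the 3 wild type values, 11 higher and 6 lower, beside 35.8% of all genes and 40.4% of the genes expressed at a similar level. Summed over the 41 genes, TPM was 6489, 6559 and 6457 in *bpcV* libraries 1 to 3, against 5951, 6003 and 6132 in wild type libraries 1 to 3. These sums did not overlap, and they averaged 6502 ± 52.0 TPM in *bpcV* and 6029 ± 93.3 TPM in wild type (SD, n = 3 each). With 3 libraries against 3 an exact permutation test of such a sum cannot give a p below 0.1.

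The wax class held the largest share of that sum, 47.9 to 53.0% in *bpcV* and 48.1 to 49.2% in wild type. In TPM, *CER1* and *CER6* were the most abundant cuticle transcripts over the 6 libraries, with means of 596 and 595 TPM, and the 7 most abundant genes (*CER1*, *CER6*, *AT5G33370*, *DCR*, *LACS1*, *LTPG1* and *MAH1*) made up 49.6% of the TPM of all 41. The lowest tested gene was *CYP77A4*, with a mean of 9.24 TPM. *SHN2*, a SHINE transcription factor gene, had 1, 1 and 4 counts in *bpcV* and 2, 4 and 7 in wild type, too few to test.

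**Figure D2:**
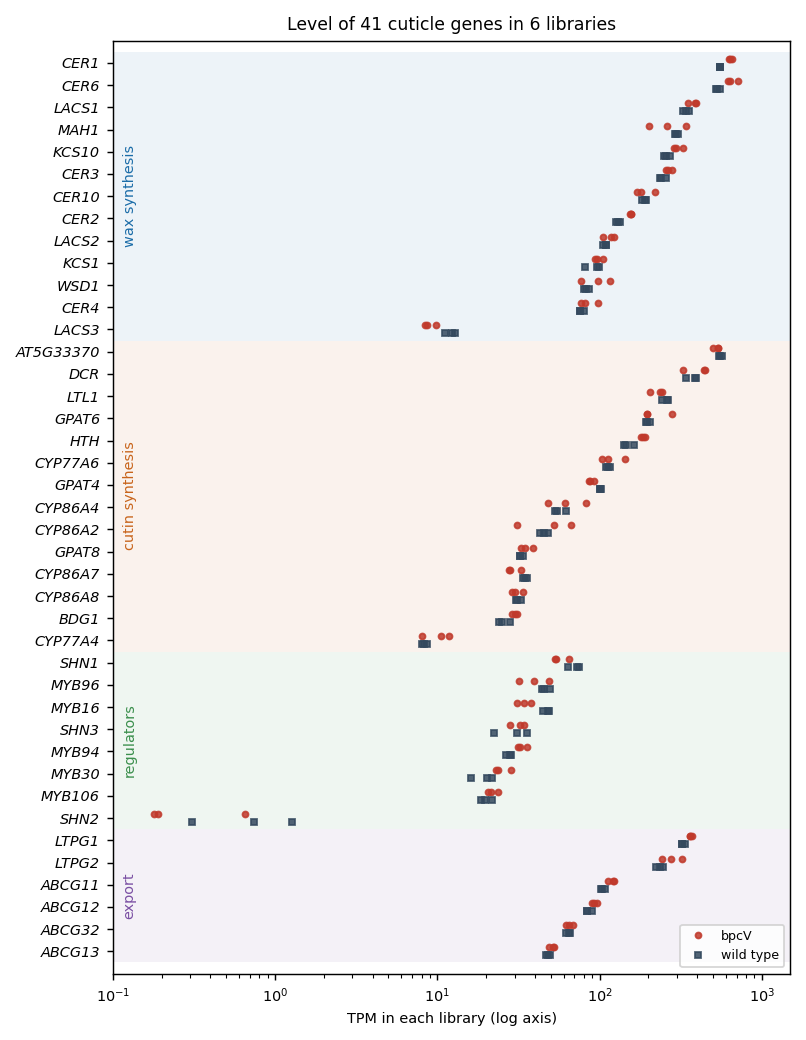
Level of the 41 cuticle genes in TPM (log axis) in each of the 3 *bpcV* and 3 wild type libraries, 1 point a library, grouped by role. *CER1* and *CER6* lie highest, at means near 596 TPM, and *SHN2* lies lowest, at 1.27 TPM or less in every library.

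Wax synthesis begins when long-chain acyl-CoA synthetases activate fatty acids. *LACS3* (AT1G64400), a member of that family (chromosome 1, 23915570 to 23919835, TAIR10.1), had 17.7, 15.9 and 15.5 CPM in the *bpcV* libraries, against 22.7, 24.2 and 20.2 CPM in the wild type libraries. Every *bpcV* value lay under every wild type value, and the means were 16.4 ± 1.20 and 22.4 ± 2.04 CPM in *bpcV* and wild type (SD, n = 3 each). Its log2 fold change was -0.45 (SE 0.10), a level 26.9% lower in *bpcV*, with an FDR of 0.0287 in edgeR's quasi-likelihood test. Without any 1 of the libraries other than *bpcV* 1, the FDR was 0.0544 to 0.114. *LACS1*, which with *LACS2* provides activated fatty acids for wax and cutin, was far more abundant at 351, 391 and 388 TPM in *bpcV* and 326, 342 and 355 TPM in wild type. Its values overlapped (FDR = 0.398 in the same edgeR test), and the fitted fold changes of *LACS1* and *LACS2* were 0.13 and 0.08 on the log2 scale.

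The elongation branch lengthens the activated acids, and all 5 of its genes had a fold change above 0 without any of them passing the test. Above 0 stood 51.5% of all genes. At an unadjusted p under 0.05 there were 3, all higher, beside 14.4% of all genes in that direction. *CER6* (AT1G68530), the main condensing enzyme for the longest stem and flower waxes, stood at 711, 620.2 and 638 TPM in *bpcV*, against 552, 523 and 528 TPM in wild type. The 3 *bpcV* values lay above all 3 of wild type, the log2 fold change was 0.29 (SE 0.09) and the FDR was 0.0849 by edgeR's quasi-likelihood test. *CER2*, an acyltransferase-like protein needed for the last elongation steps, had the tightest *bpcV* values of all, 157, 156 and 154 TPM, against 130, 134 and 127 TPM in wild type. These too did not overlap (log2 fold change 0.25, SE 0.08, edgeR FDR = 0.0724). *KCS10*, the condensing enzyme also named FIDDLEHEAD, whose loss fuses flowers to one another, did not overlap either (log2 fold change 0.21, edgeR FDR = 0.161). *KCS1* and *CER10*, the enoyl-CoA reductase of the complex, stood at 0.09 and 0.01 on the same scale. The branch summed to 1479, 1369 and 1361 TPM in *bpcV* and 1220, 1180 and 1214 TPM in wild type, and these sums did not overlap.

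In the alkane branch *CER1* (AT1G02205), which with *CER3* forms alkanes from very-long-chain acyl groups, had 654, 636 and 627 TPM in *bpcV*, against 554, 551 and 551 TPM in wild type. The *bpcV* values were all higher, by 0.20 on the log2 scale (SE 0.09), and the FDR was 0.170 in the edgeR test. *MAH1*, the midchain alkane hydroxylase that makes secondary alcohols and ketones, spread widely in the mutant, with 343, 203 and 260 TPM in *bpcV* and 292.7, 297 and 303 TPM in wild type. *bpcV* library 1 was above the wild type range and libraries 2 and 3 under it, and the log2 fold change was -0.16, and 0.014 without *bpcV* library 2. In the alcohol branch *WSD1*, the wax ester synthase, had 116, 77.4 and 98.2 TPM in *bpcV* and 82.7, 80.1 and 86.1 TPM in wild type. Those values overlapped, with a log2 fold change of 0.22 and an edgeR FDR of 0.331, and *CER4*, the reductase that makes primary alcohols, stood at 0.13.

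The cutin class held 14 genes, 9 with a fold change above 0 and 5 below, and none passed the test. At an unadjusted p under 0.05 there were 4, 2 in each direction, beside 28.3% of all genes. Its summed TPM overlapped between genotypes, at 1855, 2168 and 2047 in *bpcV* and 1909, 2003 and 2034 in wild type. Among the hydroxylases of the CYP86A and CYP77A families, which place the hydroxyl groups of cutin monomers, *CYP77A6* (AT3G10570), the midchain hydroxylase of petal cutin, was the most abundant, with 104, 143 and 113 TPM in *bpcV* and 110, 112 and 115 TPM in wild type. Its *bpcV* library 2 stood above all the others (log2 fold change 0.08, edgeR FDR = 0.704). *CYP86A2* and *CYP86A4*, omega-hydroxylases, showed the same library even further out. *CYP86A2* had 31.1, 67.0 and 52.6 TPM in *bpcV* and 43.1, 45.5 and 47.9 TPM in wild type, so the *bpcV* values straddled the wild type range. *CYP86A7* was the only hydroxylase gene whose CPM values did not overlap, lower in *bpcV* by 0.24 on the log2 scale (edgeR FDR = 0.133).

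Of the acyltransferases that join the monomers to glycerol, *DCR* (AT5G23940), a BAHD-type enzyme, was the most abundant, with 327, 437 and 448 TPM in *bpcV* and 340, 390 and 394 TPM in wild type. The lowest and the highest of these 6 values were both from *bpcV* (log2 fold change 0.10, edgeR FDR = 0.681). *GPAT6*, needed for petal cutin, had its outlying value in *bpcV* library 2 at 281 TPM, with 196 TPM in the other *bpcV* libraries and 194 to 204 TPM in wild type. *GPAT4*, a near relative with *GPAT8* of overlapping function in stems and leaves, was the one acyltransferase gene without overlap, at 87.3, 92.5 and 85.9 TPM in *bpcV*, against 101 TPM in all 3 wild type libraries. Its fold change was -0.20 on the log2 scale (edgeR FDR = 0.134), while that of *GPAT8* was 0.10.

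All 4 genes of cutin assembly and surface organisation had CPM values that did not overlap between the genotypes, 2 higher and 2 lower in *bpcV*, where 35.8% of all genes did not overlap, 18.2% higher and 17.6% lower. *HTH* (*HOTHEAD*, AT1G72970), a flavin oxidoreductase of long-chain fatty acids whose loss fuses floral organs, had 186, 181 and 190 TPM in *bpcV*, against 141, 145 and 164 TPM in wild type. It was higher in every *bpcV* library by 0.30 on the log2 scale (SE 0.09), with an edgeR FDR of 0.0606. *BDG1*, an extracellular hydrolase, was also higher in every *bpcV* library (log2 fold change 0.22, edgeR FDR = 0.136). *AT5G33370*, annotated as a GDSL-like lipase or acylhydrolase, had 499, 535 and 535 TPM in *bpcV*, against 545, 551 and 569 TPM in wild type, and *LTL1*, also a GDSL lipase, was lower without overlap in CPM as well. Their log2 fold changes were -0.09 and -0.17 (edgeR FDR = 0.547 and 0.275).

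The regulators included the gene with the lowest FDR. *MYB16* (AT5G15310), a MIXTA-like MYB that shapes conical petal cells and activates cuticle genes (chromosome 5, 4974671 to 4976470, TAIR10.1), had 498, 652 and 670 counts in *bpcV*, against 916, 836 and 863 in wild type. Scaled to library size these were 29.6, 36.5 and 33.7 CPM in *bpcV* and 43.3, 48.0 and 46.9 CPM in wild type. All *bpcV* values lay under all wild type values, and the means were 33.3 ± 3.48 CPM in *bpcV* and 46.0 ± 2.47 CPM in wild type (SD, n = 3 each). The log2 fold change was -0.47 (SE 0.10, 95% interval -0.70 to -0.24), a level 27.7% lower, and the FDR was 0.0204 with edgeR's quasi-likelihood test. Leaving out *bpcV* and wild type libraries one at a time gave -0.54 to -0.39. The FDR was then 0.0150 and 0.0165 without *bpcV* 1 or 2, and 0.0542 to 0.0885 without *bpcV* 3 or a wild type library. *MYB106*, its closest relative in the MIXTA-like group, stood at 0.13 (edgeR FDR = 0.486).

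The other MYB genes of the class, activators of wax synthesis, leaned both ways. *MYB96*, which acts under drought, had 49.0, 31.7 and 39.7 TPM in *bpcV* and 44.1, 45.4 and 49.8 TPM in wild type, with overlap. *MYB94* did not overlap, at 35.7, 31.5 and 32.5 TPM in *bpcV* and 28.2, 28.5 and 26.4 TPM in wild type (log2 fold change 0.26, edgeR FDR = 0.0985). *MYB30* did not overlap either (log2 fold change 0.37, edgeR FDR = 0.0968). *SHN1* (*WIN1*, AT1G15360), an AP2/ERF activator of cutin and wax genes, had 54.3, 53.1 and 64.9 TPM in *bpcV* and 63.6, 72.9 and 74.8 TPM in wild type. *bpcV* library 3 lay just above wild type library 1, and the log2 fold change was -0.29 (SE 0.11, edgeR FDR = 0.141), while *SHN3* stood at 0.09.

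Before the start of 3 of these regulator genes lie GA repeats, the kind of sequence to which BASIC PENTACYSTEINE proteins are known to bind, and the promoters are shown for that reason. The 250 bases before each RefSeq gene start in TAIR10.1 are written 5′ to 3′ on the gene's own strand, *SHN1* at chr1:5283018-5283267 (plus strand), *MYB94* at chr3:17541308-17541557 (minus strand) and *MYB96* at chr5:25081142-25081391 (minus strand), with every GAGAGA or TCTCTC match in capitals.
SHN1: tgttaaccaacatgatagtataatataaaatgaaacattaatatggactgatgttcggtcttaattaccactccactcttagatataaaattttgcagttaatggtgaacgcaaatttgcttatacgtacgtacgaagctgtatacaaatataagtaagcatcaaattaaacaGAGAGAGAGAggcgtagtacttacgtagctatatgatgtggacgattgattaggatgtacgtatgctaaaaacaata
MYB94: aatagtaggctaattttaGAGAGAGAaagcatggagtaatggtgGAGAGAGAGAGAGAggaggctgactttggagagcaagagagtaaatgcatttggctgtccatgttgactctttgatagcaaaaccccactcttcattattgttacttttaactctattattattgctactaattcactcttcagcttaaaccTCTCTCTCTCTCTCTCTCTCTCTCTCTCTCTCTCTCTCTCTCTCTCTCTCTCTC
MYB96: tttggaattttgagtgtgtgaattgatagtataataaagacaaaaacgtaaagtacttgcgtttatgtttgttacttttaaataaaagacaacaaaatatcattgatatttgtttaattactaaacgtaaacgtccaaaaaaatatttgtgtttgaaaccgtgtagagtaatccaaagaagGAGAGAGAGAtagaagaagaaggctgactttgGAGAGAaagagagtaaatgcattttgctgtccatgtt
The longest alternating GA or CT run was 55 bases in *MYB94*, where it ends at the gene start, 12 in *SHN1* and 10 in *MYB96*. From 250 bases before to 50 after the start, GAGAGA on either strand was found in 10 of the 41 cuticle genes (24.4%: *CER3*, *CER4*, *CYP86A8*, *GPAT4*, *GPAT6*, *SHN1*, *MYB30*, *MYB94*, *MYB96* and *ABCG13*), and in 29.4% of all tested genes with a promoter in the annotation. In the 250 bases before the start alone it was in 6 of 41 (14.6%: *CER3*, *CYP86A8*, *GPAT6*, *SHN1*, *MYB94* and *MYB96*) and in 20.0% of all. Of the 10, *MYB30* and *MYB94* were higher and *GPAT4* lower in *bpcV* without overlap in CPM, and the other 7 overlapped. Among all genes 35.8% did not overlap, and among the cuticle genes 42.5%. Neither *MYB16* nor *LACS3* held the repeat in either window. A match is a run of letters and not a measured binding site.

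A second motif is the L1 box (TAAATGTA or TAAATGCA, on either strand), known from promoters of epidermal genes. From 250 bases before to 50 after the start it was in 7 of the 41 genes (17.1%: *KCS10*, *GPAT8*, *AT5G33370*, *MYB94*, *MYB96*, *ABCG11* and *ABCG12*) and in 5.15% of all tested genes. In the 250 bases before the start alone it was in 5 of 41 (12.2%) and in 4.505% of all. The sequences below show 40 bases around each of the 6 boxes that lie before the start of these 5 genes, the box in capitals, on the gene's strand in TAIR10.1: *KCS10* chr2:11173309-11173348, *AT5G33370* chr5:12604883-12604922, *MYB94* chr3:17541449-17541488 and *MYB96* chr5:25081142-25081181 (all minus strand), and *ABCG11* chr1:6142339-6142378 and chr1:6142304-6142343 (plus strand).
KCS10: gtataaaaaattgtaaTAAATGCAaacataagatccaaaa
AT5G33370: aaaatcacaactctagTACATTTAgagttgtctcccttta
MYB94: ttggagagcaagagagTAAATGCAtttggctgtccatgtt
MYB96: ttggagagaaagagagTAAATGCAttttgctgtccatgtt
ABCG11, first form: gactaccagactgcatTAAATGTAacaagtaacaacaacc
ABCG11, second form: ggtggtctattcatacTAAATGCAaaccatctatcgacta
*MYB94* and *MYB96* share 49 of 55 aligned bases around their box, with a longest common run of 18 bases. The fitted log2 fold change was 0.26 for *MYB94* (edgeR FDR = 0.0985) and -0.22 for *MYB96* (edgeR FDR = 0.373). Neither gene passed the test, so an opposite response of the pair was not shown. Whether the shared bases bear on expression was not tested. Of these 5 genes *KCS10*, *MYB94* and *ABCG11* were higher in *bpcV* without overlap in CPM, *AT5G33370* lower without overlap, and *MYB96* overlapped. In the wider window *ABCG12* was higher without overlap and *GPAT8* overlapped. Among all genes 35.8% did not overlap, and among the cuticle genes 42.5%. The G-box CACGTG was in none of the 41 windows from 250 before to 50 after the start and in 8.83% of all.

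All 6 export genes had a fold change above 0, where 51.5% of all genes did. None passed the test, and 1 had an unadjusted p under 0.05, where 28.3% of all genes did. *ABCG11* (AT1G17840), a half-transporter for wax and cutin lipids, had 121, 123 and 113 TPM in *bpcV*, against 103, 102 and 108 TPM in wild type. It did not overlap, and its log2 fold change was 0.18 with an edgeR FDR of 0.177. Its partner *ABCG12*, a wax transporter, did not overlap in CPM (log2 fold change 0.11), while *ABCG13* and *ABCG32*, which serve floral cutin, stood at 0.06 and 0.02. *LTPG1* (AT1G27950), a lipid transfer protein anchored at the cell surface, had 374, 361 and 362 TPM in *bpcV*, against 320.2, 322 and 337 TPM in wild type. Every *bpcV* value was higher, by 0.17 on the log2 scale (edgeR FDR = 0.176), and *LTPG2* stood at 0.25 with overlapping values. The class summed to 945, 1023 and 952 TPM in *bpcV* and 873, 841 and 879.5 TPM in wild type, without overlap.

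The *bpcV* libraries differed among themselves more than the wild type libraries did. The median coefficient of variation of the 40 genes was 8.45% in *bpcV* and 4.53% in wild type. Over all tested genes it was 12.7% and 6.68%, and over the 5211 genes expressed at a similar level 10.9% and 4.48%. The coefficient was larger in *bpcV* for 27 of the 40 (67.5%), beside 73.6% of all genes and 84.0% of those 5211 genes. *bpcV* library 1 was the lowest of the 3 mutant libraries for 10 of 14 cutin genes and the highest for 9 of 13 wax genes. *bpcV* library 2 was the highest for 8 of the cutin genes and the lowest for 7 of the wax genes. The ratio of summed wax to summed cutin TPM was 1.85, 1.45 and 1.57 in *bpcV* libraries 1 to 3 and 1.53, 1.44 and 1.45 in wild type libraries 1 to 3. Among the tested genes the largest coefficients of variation within *bpcV* were those of *CYP86A2* (36.2% in *bpcV* and 4.73% in wild type), *CYP86A4*, *MAH1*, *GPAT6* and *MYB96*. Within wild type the largest was that of *SHN3*, at 24.1%. The 5 mature pollen markers summed to 948, 1518 and 1297 TPM in *bpcV* and 1272, 1331 and 1358 TPM in wild type, lowest in *bpcV* library 1 and highest in *bpcV* library 2, as the cutin sum was. The sum of the 6 floral organ genes had the same order, at 817, 1040 and 933 TPM in *bpcV* and 829, 838 and 828 TPM in wild type. Of these genes *AP1*, *AP3*, *PI* and *SEP3* each had that order. *STK* was highest in *bpcV* library 1 and lowest in *bpcV* library 2, at 42.2, 29.8 and 35.35 TPM in *bpcV*. *AG* stood at 55.15, 54.2 and 53.9 TPM in the same libraries. Among the pollen markers *PPME1* was lowest in *bpcV* library 2, with 180, 167 and 212 TPM in *bpcV* libraries 1 to 3. The part of either list in the spread was not tested.

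**Figure D3:**
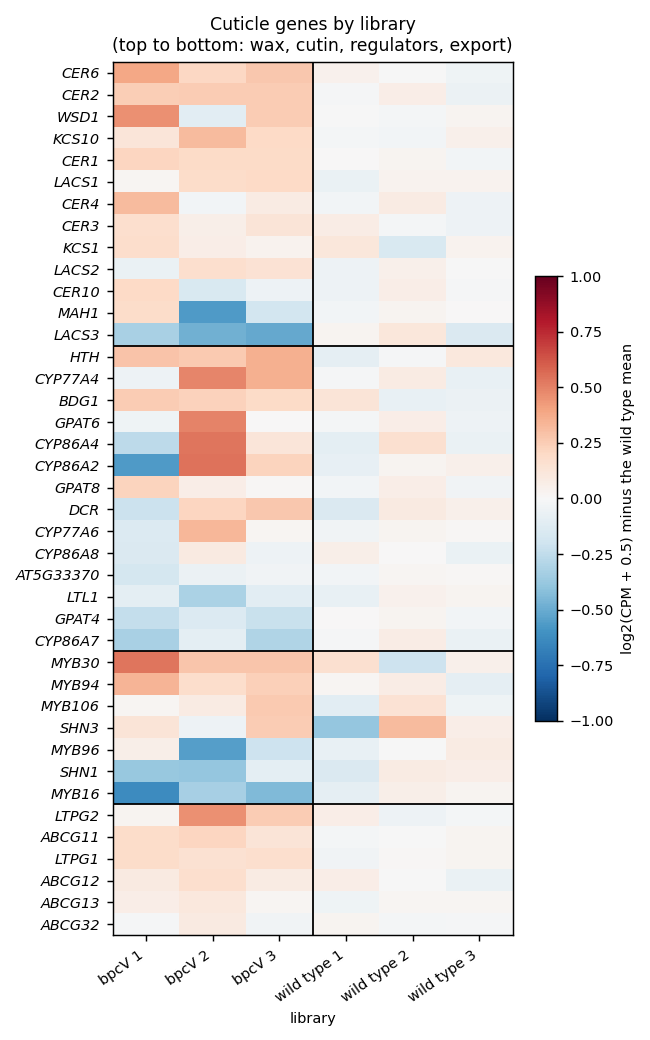
Deviation of each tested cuticle gene (rows, by role) in each library (columns, *bpcV* 1 to 3 and then wild type 1 to 3) from its wild type mean, in log2(CPM + 0.5). *bpcV* library 1 lies below and *bpcV* library 2 above the wild type mean at *CYP86A2* and *CYP86A4*, and the order is turned round at *MAH1* and *WSD1*.

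Among 17 further genes of the same pathway, 16 were tested, and 1 passed at an FDR of at most 0.01, where 3.89% of all genes did. That was *DEWAX*, an AP2/ERF repressor of wax genes, which rose in *bpcV* at 32.6, 36.0 and 31.4 CPM, against 21.8, 16.9 and 16.4 CPM in wild type. The values did not overlap, the log2 fold change was 0.86 (SE 0.13) and the FDR was 0.00494 in edgeR's quasi-likelihood test. The FDR was above 0.01 when *bpcV* library 2 (0.0121), *bpcV* library 3 (0.0165), wild type library 2 (0.0350) or wild type library 3 (0.0290) was left out. *CER26*, a relative of *CER2*, *KCS5*, a condensing enzyme, and *AT4G24140* had FDR values of 0.0226, 0.0412 and 0.0486 at log2 fold changes of -1.07, 0.35 and -0.36. The median of these 16 was -0.01.

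Suberin, the lipid barrier of roots, seed coats and wounds, uses paralogues of the cuticle enzymes, and 4 of 10 suberin genes were called by edgeR (FDR at most 0.01), where 3.89% of all genes did. DESeq2 and the likelihood ratio test called 6 each, beside 7.99% and 10.7% of all genes. *ABCG6* (log2 fold change 0.70, FDR = 0.00204), *GPAT5* (0.80, FDR = 0.0070) and *FAR1* (0.75, FDR = 0.0092) were higher in *bpcV*, and *ABCG2* (-1.24, FDR = 0.0099) was lower. At an edgeR FDR of at most 0.05 there were 3 higher and 3 lower, beside 12.0% of all genes in both directions together. The further 2, both lower, had the largest changes of the list, *CYP86A1* (-2.45, FDR = 0.0148) and *CYP86B1* (-1.96, FDR = 0.0225), omega-hydroxylases of suberin monomers, at 6.03 CPM or less in every library. *ABCG2* had expected counts that were not whole in all 6 libraries, so part of its reads were shared with other genes. *GPAT5*, *FAR1* and *ABCG2* lost the call without any 1 library other than *bpcV* 1, with an FDR of up to 0.0498, 0.0585 and 0.0426, and *ABCG6* without *bpcV* 3 or any wild type library (up to 0.0170). The median log2 fold change of the 10 genes was -0.46. The difference between suberin and cuticle genes was not tested.

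The cuticle is made by the epidermis, and epidermal markers were present in every library. Of 7 genes of the epidermal layer 2 passed the edgeR test, where 3.89% of all genes did. *ANL2*, a homeodomain factor of the outer layer, had 15.04, 17.6 and 20.6 CPM in *bpcV* and 38.3, 39.3 and 38.8 CPM in wild type (log2 fold change -1.13, FDR = 0.00121). *LTP1*, an abundant epidermal lipid transfer protein, had 3936, 3705 and 3635 CPM in *bpcV* and 2433, 2447 and 2305 CPM in wild type (log2 fold change 0.65, FDR = 0.00653). The *ANL2* call was lost without wild type 1 or 2 (FDR up to 0.0103), and the *LTP1* call without *bpcV* 3 or any wild type library (up to 0.0461). The 7 markers summed to 8986 to 9875 TPM in *bpcV* and 6104 to 6307 TPM in wild type, of which *LTP1* gave 8434 to 9290 and 5513 to 5751 TPM. Of the 7 markers 3 had a fold change above 0 and 4 below. *HDG1*, a homeodomain gene of the layer, had 54.2, 65.7 and 60.01 CPM in *bpcV* and 42.0, 39.3 and 43.0 CPM in wild type, without overlap (log2 fold change 0.53, edgeR FDR = 0.0108). *ATML1*, another, had 36.0 to 45.2 TPM in *bpcV* and 45.4 to 48.1 TPM in wild type, lower without overlap (log2 fold change -0.17, edgeR FDR = 0.358). *PDF2*, of the same list, was lower without overlap too (log2 fold change -0.21, edgeR FDR = 0.125). Of the 7 markers 2 were higher and 3 lower without overlap in CPM, beside 18.2% and 17.6% of all genes. The part of epidermal content in the higher sum of cuticle transcripts was not tested. None of 6 stomatal lineage genes passed with edgeR's quasi-likelihood test (log2 fold changes -0.21 to 0.20), with 0 at an unadjusted p under 0.05 and 0 by DESeq2. The interval lay within 1.5-fold for 2 of the 6, and *MUTE* and *EPF1* had only 8 to 34 counts. Of 4 tested trichome genes *GL2*, a homeodomain factor, passed (-1.89, FDR = 0.00147), with 22 to 30 counts in *bpcV* and 81 to 112 in wild type. Its call was lost without *bpcV* 3 or wild type 1 or 3 (FDR up to 0.0109). *GL3* and *TRY* were lower at an edgeR FDR of 0.0286 and 0.0419, and 6.35% of all genes were lower at 0.05. *GL3* had only 6 to 7 counts in *bpcV* and 14 to 26 in wild type. The remaining tested trichome gene, *CPC*, stood above 0 (log2 fold change 0.33, edgeR FDR = 0.689). *GL1* had 5 to 9 counts in *bpcV* and 0 to 5 in wild type, too few to test. All 11 tested tapetum genes stood below 0 (-1.24 to -0.23), where 51.5% of all genes stood above 0. The 12 listed tapetum genes summed to 186.5, 179 and 242 TPM in *bpcV* and 238, 261 and 421 TPM in wild type. These sums overlapped, and wild type library 3 stood highest. In CPM 4 of the 11 were lower without overlap, beside 17.6% of all genes. With the edgeR test 0 passed at an FDR of 0.01, and 3 were lower at an FDR of at most 0.05, beside 6.35% of all genes. At an unadjusted p under 0.05 there were 5, all lower, beside 13.8% of all genes in that direction. DESeq2 and the likelihood ratio test called 3 each, beside 7.99% and 10.7% of all genes. None of 5 mature pollen (-0.42 to 0.28), 6 floral organ (-0.23 to 0.48) or 3 phloem and vascular genes (-0.34 to -0.04) passed the edgeR quasi-likelihood test. At an unadjusted p under 0.05 there were 1, 3 and 1, beside 28.3% of all genes. By DESeq2 and by the likelihood ratio test there were 0, 1 and 0, beside 7.99% and 10.7% of all genes.

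**Figure D4:**
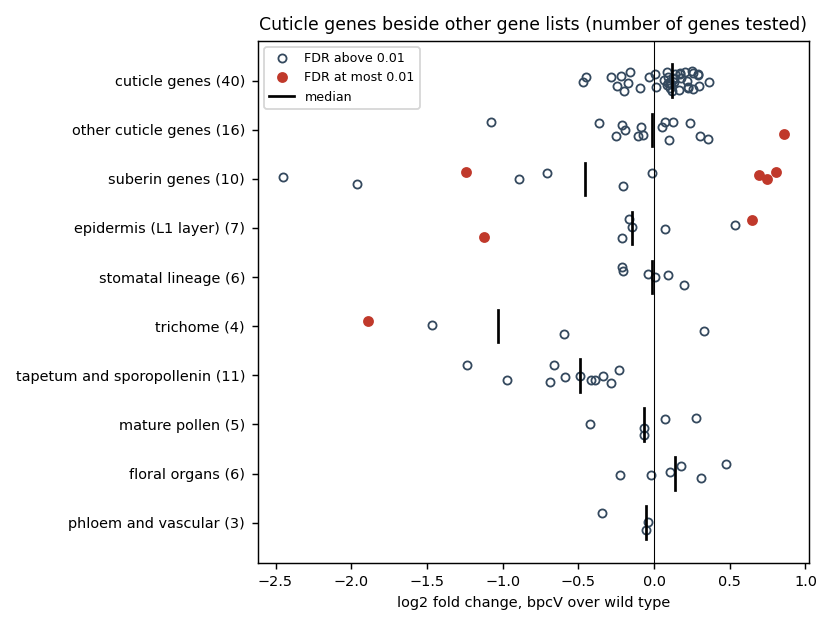
Log2 fold change of *bpcV* over wild type (x axis, edgeR, n = 3 libraries of each genotype) for each tested gene (circle) of the 40 cuticle genes and of each other list (rows), with red for an FDR of at most 0.01 and a bar at each median. The cuticle genes hold no red point and lie between -0.47 and 0.37, while suberin genes run from -2.45 to 0.80.

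Some of the genes lie close together. *CYP86A4* and *GPAT4* are 355 bases apart on chromosome 1, on opposite strands, with log2 fold changes of 0.16 and -0.20. *CYP86A2* and *GPAT8* are 10929 bases apart on chromosome 4, and *ABCG13* and *ABCG12* 16260 bases apart on chromosome 1. For 10 genes (*CER2*, *CER10*, *CYP86A2*, *CYP77A4*, *BDG1*, *AT5G33370*, *SHN2*, *MYB106*, *ABCG11* and *LTPG1*) another annotated gene overlaps the locus, and whether counting used strand is not stated. *MYB106* and *ABCG11* alone among the cuticle genes had expected counts that were not whole (by more than 0.005) in all 6 libraries, by at most 0.36 of a count.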

How the data were processed

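Poly-A RNA-seq libraries from 3 *bpcV* and 3 wild type samples were analysed. Paired-end reads were aligned by the authors to the TAIR10 transcript annotation with bowtie2 and gene levels estimated with RSEM (versions not given in the sources used here). The deposited expected counts are RSEM estimates, not normalized, and the authors' TPM values in the same files are scaled by effective gene length and library. The deposited effective length in bases was used as a description only. A further table holds the authors' own scaled values, fold changes, p-values and FDR values, and was not used. With edgeR's glmQLFTest and an FDR of at most 0.01 the paper reports more differing genes than the 809 called here. The paper does not state its filter or scaling, and the reason for the difference was not tested.

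Expected counts were rounded to whole numbers, filtered (filterByExpr, minimum count 10, minimum total 15) and scaled with TMM factors, and genotypes were compared with edgeR 4.0.16 (glmQLFTest, genotype only, R 4.3.3), with Benjamini-Hochberg adjustment over 20813 genes and a threshold of 0.01. The standard error is the absolute log2 fold change over the square root of F, and intervals are per gene and unadjusted. The biological coefficient of variation was 13.0%. The test was tried on simulated counts with known changes. Genes named in full are those at an FDR of at most 0.05 and the most abundant of each branch, with up to 4 of lowest FDR from each other list. Others were named after their values were seen. The members and lists were chosen with earlier results of these data known. Promoters were read from the TAIR10.1 genome at RefSeq gene starts, where 31912 of the 32678 deposited loci were found. Libraries of a genotype shared equal counts at no more than 8.48% of genes, so none was a duplicate. Alternatives tried were DESeq2 1.42.0, the likelihood ratio test, other scaling factors and filters, unrounded counts, limma 3.58.1 on log2(TPM + 1) and log2(TPM + 0.1), a robust fit, a replicate block and each library left out.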

Additional observations from a re-analysis of the deposited data

How the results depend on the processing

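The count of cuticle genes called was 0 under every alternative but DESeq2 (1), the likelihood ratio test (2) and an FDR threshold of 0.05 (2), and 0 in each fit without 1 library. The count over all genes, 809, was 1790 with DESeq2, 2233 with the likelihood ratio test, 2506 at an FDR of 0.05, 490 with limma on log2(TPM + 1), 329 on log2(TPM + 0.1), 338 with limma on log2(TPM + 1) and no filter, and 167 to 1249 without 1 library. The further cuticle genes called, 1, were 2 with DESeq2, 2 with the likelihood ratio test, 4 at an FDR of 0.05, 0 with each of the limma fits and 0 to 2 without 1 library. The cause was not tested. The median log2 fold change of the cuticle genes stayed between 0.10 and 0.14. The genes without overlap were 17 with library totals alone, 16 in TPM and 17 to 25 without 1 library. With 2 libraries against 3, values separate more easily, and the share of all genes in those fits is not given here. *MYB16* stayed between -0.54 and -0.39 (adjusted p 0.00204 to 0.0885 over the edgeR, DESeq2 and limma alternatives) and *LACS3* between -0.52 and -0.40 (0.00483 to 0.114).

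The deviations of same-numbered libraries correlated at -0.02, -0.01 and 0.18, with 1 of 3 correlating best with its own number. With 3 libraries a genotype this cannot decide whether same-numbered samples were handled together, which the sample titles do not say. With the replicate block, 0 cuticle genes, 408 genes in all and 0 further cuticle genes were called. The block also put *DEWAX* (FDR 0.0122), *GPAT5* (0.0208), *FAR1* (0.0309) and *LTP1* (0.0301) above 0.01 in the edgeR fit, while *ABCG6*, *ABCG2*, *ANL2* and *GL2* stayed at 0.0098 or below. Of 19 alternatives at the 0.01 threshold, *FAR1* was called in 8, *GPAT5* in 10, *ABCG2* and *DEWAX* in 11 each. *LTP1* was called in 13, *ABCG6* in 15, *GL2* in 16 and *ANL2* in 17. *FAR1* was not called with RLE factors (edgeR FDR = 0.0105). None of the limma fits called *FAR1*, *GPAT5* or *ABCG2*.

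Of 760 recomputed fold changes of single cuticle genes, 740 kept their sign and side of the threshold, 3 passed it and 17 changed sign, in 9 genes. *CER10* stood at -0.0006 with DESeq2, -0.0043 with RLE factors, -0.0084 with at least 10 counts in every library and -0.0016 with the replicate block. Without 1 library, *CER10* ran from -0.103 to 0.0813, *MAH1* from -0.363 to 0.0144, *CYP86A2* from -0.116 to 0.392, *CYP86A4* from -0.0570 to 0.338, *CYP86A8* from -0.0961 to 0.0183, *CYP77A6* from -0.0563 to 0.181, *GPAT6* from -0.0173 to 0.268, *SHN3* from -0.0816 to 0.249 and *ABCG32* from -0.0205 to 0.0407. The reversals of *MAH1*, *CYP86A2*, *CYP86A4*, *CYP77A6* and *GPAT6* came without *bpcV* library 2. With 3 libraries a genotype the depth limits calls on genes of a few counts, such as *SHN2*.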
